A study of Mus musculus with 6 samples.

Results

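The genes described here encode the proteins of the cytosolic ribosome in mouse liver. They are the rows of the count table whose symbol consists of Rpl or Rps (or the acidic stalk form Rplp), a number and at most one closing letter a, l or x. This rule found 79 of 23412 rows, 49 of the large (60S) and 30 of the small (40S) subunit. At least 10 counts summed over the 6 libraries were found for 75 of them, 45 large and 30 small, and 73 (44 large and 29 small) had enough counts to be tested. Rpl26, Rpl10l and Rpl39l were listed at 0, which allows up to 3 counts a library (0.110 to 0.145 CPM, counts scaled to the size of the library), and Rpl30 lay just outside the limit with 8 counts. Rpl3l lay just inside it with 10 counts.

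The series holds RNA sequencing of 6 liver samples from C57BL/6J mice, an inbred strain, labelled as 8 weeks of age. All mice received a high-fat diet for 4 weeks. The group HFD_Lira3d was then given liraglutide, a drug that activates the GLP-1 receptor as the gut hormone does, subcutaneously at 300 µg/kg over 3 days, and the group HFD_PBS3d received phosphate-buffered saline (PBS) over 3 days. There were 3 libraries a group, named by the numbers in the table's column names: Lira161, Lira162 and Lira164, and PBS155, PBS157 and PBS158. No group on ordinary diet was used here, so both groups share the diet. The labels do not state whether the libraries of a group came from separate animals, so p-values reflect the spread among these libraries only, which may be technical.

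Each ribosome carries one copy of most ribosomal proteins, which assemble with ribosomal RNA in the nucleolus before the subunits are exported to the cytoplasm. Messenger RNAs of ribosomal proteins are short, abundant and long-lived, and most begin with a run of pyrimidines at the cap, the TOP motif, through which the mTOR pathway and Larp1 control their translation. Because that control acts on translation, the level of the transcripts and the rate at which they are translated can differ, and only the level was measured here. The liver makes large amounts of secreted protein, and its ribosome content is known to follow feeding and fasting.

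Sequences around the start of transcription are shown for the members at the ends of the range of differences between groups, 4 with the highest and 3 with the lowest log2 fold change among members with a RefSeq promoter entry and a mean of at least 5 CPM. Each runs from 100 bases before the start to 20 bases from it onward, 5′ to 3′ on the gene's strand, from RefSeq on build GRCm38.p6. Capitals mark a CTTCCG match on either strand (printed CGGAAG when on the other), the core of sites for ETS family factors, and a run of at least 8 C or T touching the 11 bases centred on the start.
Rpl5: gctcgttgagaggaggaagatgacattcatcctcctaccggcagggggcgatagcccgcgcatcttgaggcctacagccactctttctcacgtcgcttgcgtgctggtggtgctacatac
Rplp2: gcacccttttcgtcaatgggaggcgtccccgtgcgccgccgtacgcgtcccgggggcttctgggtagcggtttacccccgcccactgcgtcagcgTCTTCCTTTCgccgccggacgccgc
Rps28: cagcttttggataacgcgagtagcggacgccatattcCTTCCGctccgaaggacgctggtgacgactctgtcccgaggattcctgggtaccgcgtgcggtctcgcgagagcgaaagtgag
Rps12: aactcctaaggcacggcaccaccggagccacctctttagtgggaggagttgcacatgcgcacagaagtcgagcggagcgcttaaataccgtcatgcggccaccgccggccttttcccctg
Rps2: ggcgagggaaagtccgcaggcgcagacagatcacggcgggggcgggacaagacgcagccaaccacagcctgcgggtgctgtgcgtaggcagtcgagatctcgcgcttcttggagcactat
Rps27l: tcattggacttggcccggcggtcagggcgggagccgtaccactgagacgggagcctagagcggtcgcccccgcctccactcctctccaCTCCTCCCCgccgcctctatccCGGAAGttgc
Rpl35a: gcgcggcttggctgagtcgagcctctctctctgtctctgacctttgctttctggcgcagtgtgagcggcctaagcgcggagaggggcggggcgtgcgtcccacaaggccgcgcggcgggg

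The stretches lie at chr5:107900428-107900547 (Rpl5, plus strand), chr7:141447551-141447670 (Rplp2, plus strand), chr17:33824543-33824662 (Rps28, minus strand), chr10:23787190-23787309 (Rps12, minus strand), chr17:24719963-24720082 (Rps2, plus strand), chr9:66945986-66946105 (Rps27l, plus strand) and chr16:33056353-33056472 (Rpl35a, plus strand). Among these 7, a pyrimidine run near the annotated start was found in Rplp2, with 10 bases, at the high end, and in Rps27l, with 9 bases, at the low end. The CTTCCG core was found once in Rps28 and once in Rps27l. A missing match says only that these letters are not in the window.

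Promoter entries of 300 bases, 250 before the start and 50 from it onward, were found for 59 of the 79 members. A run of at least 5 C or T that begins with a C at the annotated start was present in 13 of the 59 (22.0%). It was present in 2.51% of all 32851 promoters in the table and in 2.91% of the other tested genes. A run of at least 8 C or T near the start was present in 23 members (39.0%) against 9.72% of all promoters and 12.4% of the other tested genes. Members and other tested genes were counted once per gene, with the feature in any of their entries, while all promoters were counted per entry. CTTCCG on either strand was present in 40 members (67.8%) against 16.9% of all promoters and 33.8% of the other tested genes. AAGATGGC, a core of sites for the factor YY1, was present on either strand in 5 members (8.47%) against 2.75% of all promoters and 5.20% of the other tested genes. These shares describe the sequences around the starts RefSeq annotates. Among the 54 tested members with an entry, the median log2 fold change between the treatments was 0.23 for the 12 with a C at the start and a C or T run and 0.19 for the 42 without. It was 0.19 for the 37 with CTTCCG and 0.23 for the 17 without.

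The genes are scattered over the genome: the 79 members lie on 19 chromosomes, at most 14 on one (chromosome 7). Levels were compared between genes per kilobase of summed exon length, over all 6 libraries. Rplp1, an acidic protein of the stalk that recruits elongation factors, had the highest level with 502 CPM per kilobase, followed by Rps15 with 289.8 and Rpl36 with 272. Rpl4, a protein of the exit tunnel and the member with the most counts (73215), was at 258 CPM per kilobase. The lowest tested members were Rpl34 with 0.286, Rpl31 with 10.3 and Rps15a with 12.2 CPM per kilobase. These orders depend on the length used: per kilobase of coding sequence Rpl41, which encodes a very short peptide, came first with 1977 CPM per kilobase, against 127 over its summed exons.

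Together the 79 genes held between 0.809% and 1.08% of each library's counts. The share was 1.080% in Lira161 (95% exact Clopper-Pearson interval 1.076% to 1.085%), 1.080% in Lira162 (1.076% to 1.084%) and 1.025% in Lira164 (1.021% to 1.029%). It was 0.8086% in PBS155 (0.8052% to 0.8120%), 1.009% in PBS157 (1.005% to 1.013%) and 0.8820% in PBS158 (0.8780% to 0.8859%). In these shares of library totals, all 3 liraglutide libraries lay above all 3 PBS libraries. PBS157 lay close to Lira164, however, and the PBS libraries were spread more widely. The separation depended on the scaling. In CPM with the TMM factors used for the tests, the median tested member was higher in PBS157 than in Lira164. It was at 0.17 against 0.12 on the log2 scale, relative to the PBS mean. The intervals cover counting error only. Lira161 and Lira162 lay within that error of each other, and the other differences between libraries of one group were larger than it.

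In each subunit, too, the share of library totals was higher in all 3 liraglutide libraries than in all 3 PBS libraries. The large subunit held 0.627% ± 0.0178 of counts with liraglutide and 0.532% ± 0.0604 with PBS (mean ± SD, n = 3 each). The small subunit held 0.435% ± 0.0140 with liraglutide and 0.367% ± 0.0413 with PBS. The ratio of large to small subunit counts lay between 1.42 and 1.47 in all 6 libraries, and the subunits therefore kept nearly the same proportion whether the sum was high or low. When the 10 most abundant other genes were left out of the totals, the means were 0.739% against 0.644% for the large and 0.512% against 0.445% for the small subunit.

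No ribosomal protein transcript passed the test for a difference between liraglutide and PBS. With edgeR's quasi-likelihood test and Benjamini-Hochberg adjustment over 12626 tested genes, 0 of 44 large and 0 of 29 small subunit members had an adjusted p below 0.05, where 8.77% of all tested genes did in either direction. The same count over both subunits was 0 with limma-voom and 1 with DESeq2, which called Rpl5. At an unadjusted p below 0.05, edgeR gave 10 large and 12 small subunit members, all higher with liraglutide, which is 30.1% of the 73 against a background of 12.5% of all tested genes higher at that p. The log2 fold change (liraglutide over PBS) was above 0 for 43 of 44 large and 27 of 29 small subunit members, against 51.6% of all tested genes.

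The differences were small and alike. The median log2 fold change was 0.19 in the large and 0.23 in the small subunit, or 1.14-fold and 1.17-fold, where the median of all tested genes was 0.01 and that of 5591 other tested genes at a mean of 20 CPM or more was -0.01. Members ranged from -0.13 (Rps2) to 0.45 (Rpl34), and the median standard error of a single member's log2 fold change was 0.12. In bulk liver, fewer cells of a type and less RNA per cell cannot be told apart. The liraglutide libraries lay wholly above the PBS libraries for 12 large (27.3%) and 9 small (31.0%) subunit members, against 14.9% of all tested genes.

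**Figure D1:**
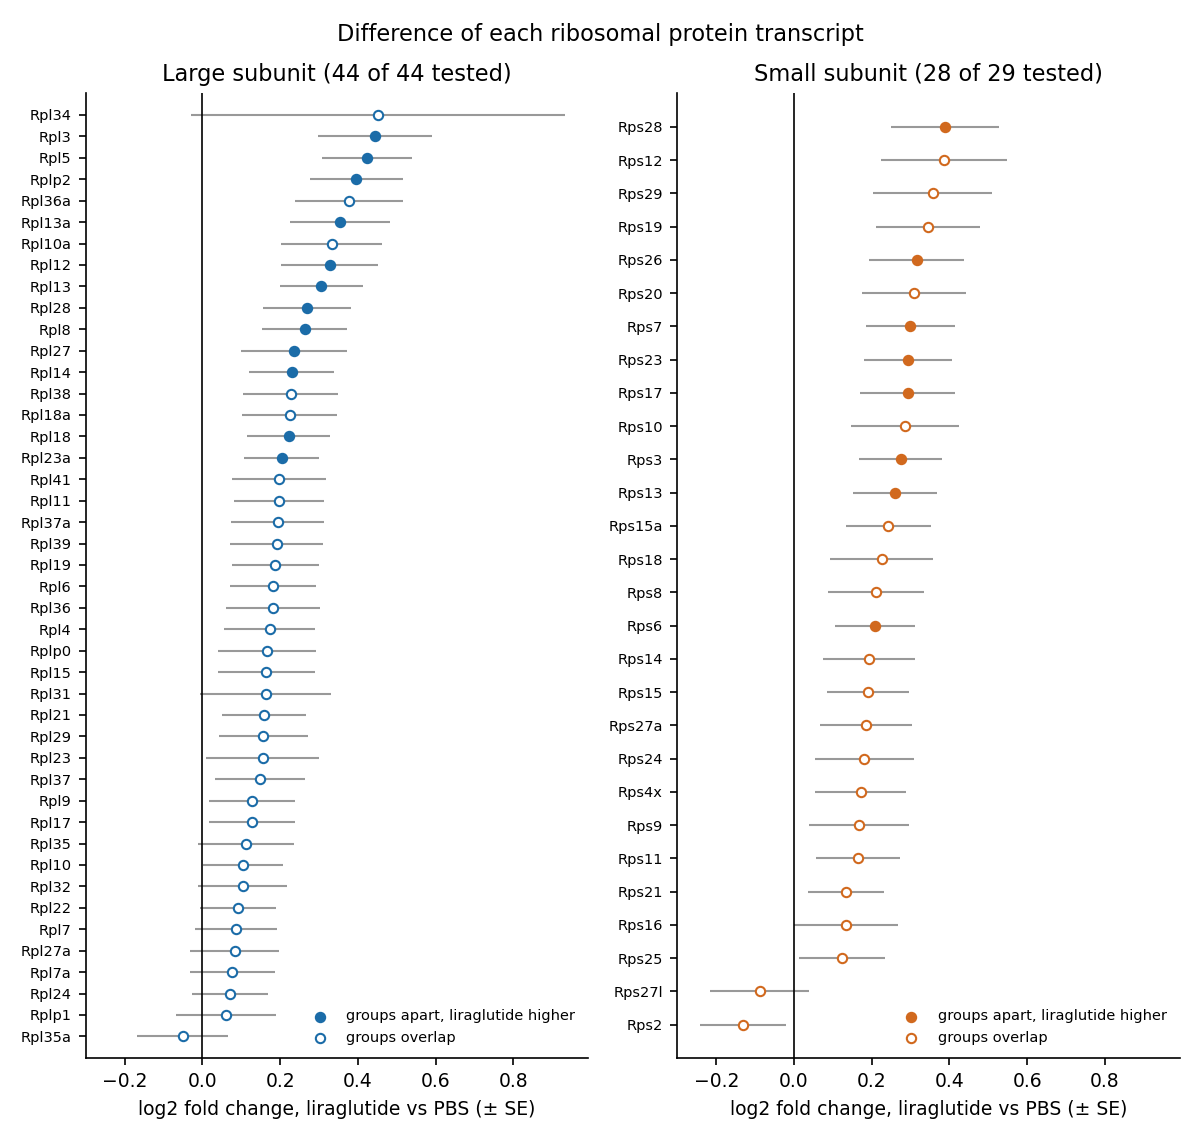
Log2 fold change of liraglutide over PBS with its standard error (horizontal axis) for the 44 large and 28 of the 29 small subunit genes tested (vertical axis, ordered by value). Filled points are genes whose 3 liraglutide libraries all lay above the 3 PBS libraries; Rpl35a, Rps27l and Rps2 alone lie to the left of 0, and the interval of Rpl34 is wide because it rests on 104 counts.

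Most of the 73 tested members were lowest in the same library. Relative to the mean of the PBS libraries on the log2 CPM scale, the median member was at 0.29 in Lira161, 0.23 in Lira162 and 0.12 in Lira164. It was at -0.20 in PBS155, 0.17 in PBS157 and 0.03 in PBS158. PBS157 thus stood above Lira164, and PBS155 stood apart below the others. PBS155 was the lowest library for 72 of the 73 members, while the highest was Lira161 for 44, Lira162 for 21, PBS157 for 6 and PBS158 for 2. Those 2 were Rps2 and Rps27l, and in Rpl34 the library Lira164 lay below PBS157 and PBS158.

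Set against single PBS libraries, Lira164 was above PBS155 in all 44 large and 29 small subunit members, but above PBS157 in 12 large and 9 small ones. Lira161 was above PBS157 in 37 large and 27 small subunit members. The size of the median difference rested on PBS155 and PBS157 in opposite ways. Without PBS155 the medians were 0.07 (large) and 0.11 (small), 2 members reached an unadjusted p below 0.05 and 64 were above 0. Without PBS157 the medians were 0.27 and 0.33 and 32 members reached that p. Without Lira161, Lira162 or PBS158 the count at that p was 5, 4 and 5, and without Lira164 it was 21. Calls over all tested genes at an adjusted p below 0.05 also changed, from 1107 with all 6 libraries. They numbered 962 without PBS155, 653 without PBS157 and 414 without PBS158. Without Lira161, Lira162 or Lira164 they numbered 462, 393 and 1496.

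**Figure D2:**
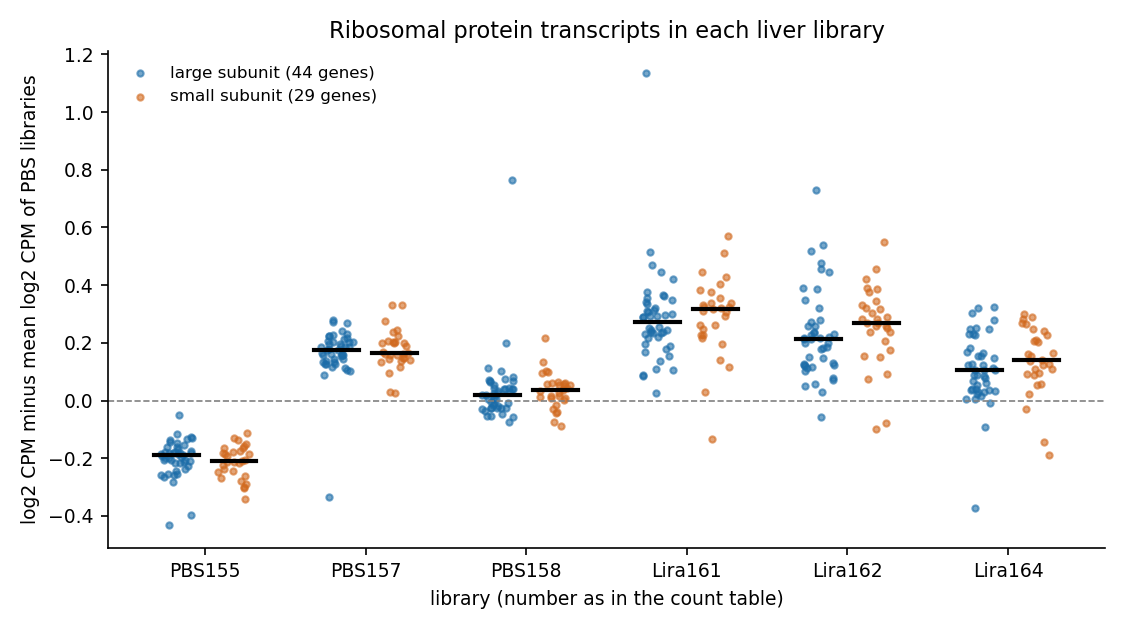
Log2 CPM of each tested member minus the mean log2 CPM of the 3 PBS libraries (vertical axis) in each library (horizontal axis), with large (44) and small (29) subunit genes side by side and a bar at the median of each. PBS155 lies lowest in both subunits, with medians of -0.19 and -0.21, and PBS157 lies above Lira164.

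The levels of other genes with short transcripts were also compared between libraries. The transcript taken to represent each tested member had a median length of 774 bases, and 55 of the 73 were under 1000 bases. Among 759 other tested genes under 1000 bases, the median level relative to the PBS mean was -0.16 in PBS155, 0.07 in PBS157 and 0.08 in PBS158, and 0.06, -0.10 and -0.14 in Lira161, Lira162 and Lira164. Their median was thus lowest in PBS155 too, but their median log2 fold change was -0.07, opposite in sign to that of the ribosomal proteins. The 15 members of 1000 to 2000 bases had a median of 0.18, the 55 shorter ones 0.19 and the 3 longer ones 0.31. What part length had in the level of single libraries was not tested.

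The protein pair Rpl5 and Rpl11 binds 5S ribosomal RNA and, outside the ribosome, the p53 regulator Mdm2. Rpl5 (chr5:107900502-107909005 in GENCODE M21) was at 68.6, 65.7 and 59.9 CPM in Lira161, Lira162 and Lira164 and at 42.1, 55.3 and 47.4 in PBS155, PBS157 and PBS158. The groups did not overlap, and the gap between Lira164 and PBS157 was small. Its log2 fold change was 0.42 ± 0.12 (SE), with the smallest adjusted p of all members (edgeR, 0.0534; unadjusted p = 0.0050). Rpl5 passed the threshold in 6 of 14 alternative analyses, with adjusted p-values between 0.0310 and 0.165 over the 14. Its partner Rpl11 was at 88.3, 89.7 and 81.6 CPM with liraglutide and 63.3, 82.2 and 81.1 with PBS. PBS157 lay above Lira164 for Rpl11, and the log2 fold change was 0.20 ± 0.12 (adjusted p = 0.324 by edgeR).

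The stalk proteins Rplp0, Rplp1 and Rplp2 form one complex on the large subunit, and their transcripts gave unequal values. Rplp2 was at 103, 116 and 98.4 CPM with liraglutide and 68.7, 90.1 and 82.2 with PBS, so the groups did not overlap. Its log2 fold change was 0.40 ± 0.12 (edgeR adjusted p = 0.0734). Rplp0, which anchors the stalk, was at 411, 365 and 361 CPM against 298, 389 and 325, with PBS157 above 2 of the liraglutide libraries. Rplp1 was at 258, 252 and 258 CPM against 203, 284 and 248, and PBS157 was the highest library. The log2 fold changes of Rplp0 and Rplp1 were 0.17 ± 0.13 and 0.06 ± 0.13, and the difference between the 3 genes was not tested.

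**Figure D3:**
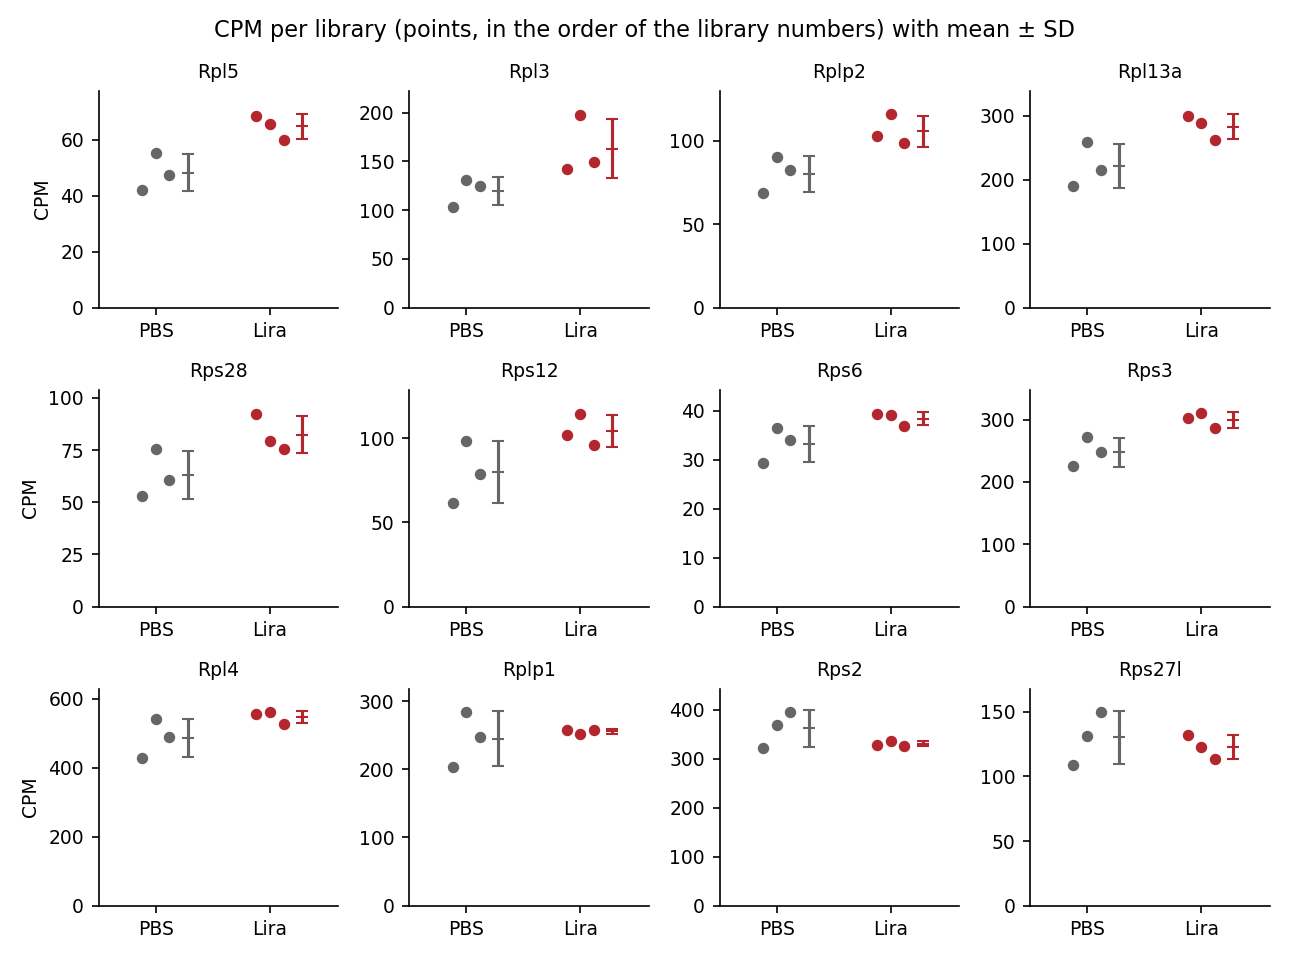
TMM-normalised CPM (vertical axis, from 0) in each of the 3 PBS (grey) and 3 liraglutide (red) libraries for 12 genes, with the mean and SD beside the points. Rpl5, Rplp2, Rpl3, Rpl13a, Rps28, Rps6 and Rps3 show groups that do not overlap, while the points of Rps12, Rpl4, Rplp1, Rps2 and Rps27l overlap.

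Among proteins of the catalytic region and the tunnel, Rpl3 (chr15:80077791-80091868), which reaches into the peptidyl transferase centre, was at 142, 198 and 149 CPM with liraglutide and 104, 131 and 125 with PBS. Lira162 was far above the others, and all 3 liraglutide libraries were above the PBS ones. Its log2 fold change was 0.44 ± 0.15 (edgeR adjusted p = 0.0929), and without Lira162 it was 0.28. Rpl8, another protein near that centre, was at 295, 297 and 267 CPM against 215, 256 and 245 (0.26 ± 0.11, adjusted p = 0.165). The groups were apart for Rpl8 as well.

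Rpl4 was at 555, 561 and 528 CPM with liraglutide and at 428, 540.2 and 490.0 with PBS. PBS157 lay above Lira164, and the log2 fold change was 0.17 ± 0.12 (edgeR adjusted p = 0.393). Rpl39, a small protein of the tunnel wall, was at 51.9, 49.5 and 44.4 CPM against 36.1, 47.2 and 44.4, with a log2 fold change of 0.19 ± 0.12. Rpl10, whose incorporation is one of the last steps of 60S maturation, was at 212, 202 and 188 CPM against 180, 203 and 177 (0.10 ± 0.10). For Rpl39 and Rpl10 the groups overlapped.

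Of the remaining large subunit members at the ends of the range, Rpl13a, also known as a factor that silences translation in inflammatory cells once released from the ribosome, was at 299.8, 289 and 262 CPM against 191, 258 and 216. The groups were apart by the narrow gap between Lira164 and PBS157, and the log2 fold change was 0.35 ± 0.13 (edgeR adjusted p = 0.122). Rpl36a was at 39.0, 38.3 and 33.5 CPM against 23.6, 34.1 and 27.6 (0.38 ± 0.14, adjusted p = 0.124), with PBS157 above Lira164. Rpl34 had the highest value of all, 0.45, but with 27, 22 and 11 counts against 12, 11 and 21 its standard error was 0.48 and the groups overlapped.

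At the low end of the large subunit, Rpl35a, mutated in some families with Diamond-Blackfan anaemia, was at 92.1, 86.9 and 84.9 CPM with liraglutide and 78.5, 105 and 89.9 with PBS. It was the one large subunit member below 0 (-0.05 ± 0.12), and its value was 0.00 with library totals as the scaling and 0.06 without PBS157. Rpl24, Rpl7a, Rpl27a and Rpl7 had log2 fold changes between 0.07 and 0.09 with groups that overlapped. PBS157 was above all 3 liraglutide libraries for Rpl24, Rpl27a and Rpl7, and above 2 of them for Rpl7a.

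In the small subunit, the highest differences included those of Rps28, Rps12, Rps29 and Rps19. Rps28 (chr17:33819027-33824562), a protein of the mRNA exit site, was at 92.5, 79.1 and 75.8 CPM with liraglutide and at 52.9, 75.5 and 60.7 with PBS. The groups were apart, though Lira164 and PBS157 nearly met, and the log2 fold change was 0.39 ± 0.14 (edgeR adjusted p = 0.117).

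Rps12 (chr10:23785183-23787275), a protein of the 40S beak, was at 102, 115 and 95.8 CPM with liraglutide and 61.7, 98.5 and 78.8 with PBS. PBS157 was above Lira164, and the log2 fold change was 0.39 ± 0.16 (edgeR adjusted p = 0.176). Rps19, the gene most often mutated in Diamond-Blackfan anaemia, was at 99.5, 103 and 86.6 CPM against 62.0, 87.7 and 78.2 (0.34 ± 0.13). Rps29 was at 42.2, 36.9 and 36.4 CPM against 24.0, 37.2 and 29.0 (0.36 ± 0.15). For Rps19 and Rps29 the groups overlapped through PBS157 alone.

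Of the most abundant small subunit transcripts, Rps3, a protein at the mRNA entry channel that also takes part in DNA repair, was at 302, 310.5 and 286 CPM with liraglutide and 225, 271 and 247 with PBS. The groups were apart, with a log2 fold change of 0.27 ± 0.11 (edgeR adjusted p = 0.145). Rps14, Rps18, Rps4x and Rps9 had log2 fold changes of 0.19, 0.23, 0.17 and 0.17, each with groups that overlapped. Rps6, the protein phosphorylated by S6 kinase downstream of mTOR, was at 39.3, 39.0 and 36.8 CPM against 29.3, 36.5 and 33.9, with groups apart by a narrow gap (0.21 ± 0.10, adjusted p = 0.247). Rps27a, which encodes a fusion of ubiquitin and a ribosomal protein, had a log2 fold change of 0.19 ± 0.12.

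Rps2 and Rps27l stood at the other end. Rps2 (chr17:24718116-24721929), which lies at the mRNA entry channel beside Rps3, was at 328, 336 and 326 CPM with liraglutide and 322, 368 and 395 with PBS. PBS158 was its highest library and the groups overlapped. The log2 fold change was -0.13 ± 0.11 (edgeR adjusted p = 0.492), and it was below 0 in all 14 alternative analyses. Rps27l, a paralog of Rps27 known as a target of p53, was at 132, 122 and 113 CPM against 109, 132 and 149.95, and its log2 fold change of -0.09 ± 0.13 was 0.02 without PBS158. Rps25, Rps16 and Rps21 came next, between 0.12 and 0.13, with overlapping groups.

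Rows of low count included genes that every cell needs as well as paralogs known from other tissues. Rpl3l, the paralog of Rpl3 known from striated muscle, had 0 to 3 counts a library, and Rpl10l and Rpl39l, known from testis, had 0. Rpl26 was listed at 0 and Rpl30 at 0 to 4 counts a library. Rps27 had 10, 7 and 3 counts with liraglutide and 3, 12 and 8 with PBS, while its paralog Rps27l had between 2722 and 3173 counts a library. The treatment of reads that match several places is not stated in the labels.

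Ribosomal protein genes have many processed pseudogenes, retrotransposed copies of their messenger RNAs. Coding sequences were therefore cut into every 50-base window, and each window was looked up in the transcripts of all other genes in GENCODE M21. Over the 75 described members the median share of windows also present in another gene was 93.0%, with 29 members at 100% and 2 at 0%. The median member shared windows with 9 other genes, and Rpl7a with 123. Of 1055 pseudogenes that shared a window with any of the 79 members, 14 had a row in the count table.

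Members with and without such copies gave similar differences between treatments. The 11 tested members that shared under 50% of windows had a median log2 fold change of 0.17, with 10 above 0, and Rpl8 and Rps3, with shares of 8.73% and 8.09%, had log2 fold changes of 0.26 and 0.27. The 28 tested members sharing every window had a median of 0.21. Across the 75 described genes the share correlated with counts per coding base at a Spearman rho of -0.44, a description across genes that share libraries and base composition. The share does not by itself sort the low rows from the others: Rpl26 had 87.3% and Rpl30 83.1%, while the 29 described members at 100% included Rps27 with 43 counts and Rpl9 with 21061. In 14 tested members an exon overlapped an exon of a gene on the opposite strand, such as Rpl5 with Fam69a over 953 bases, and their median log2 fold change was 0.19, as for the other 59.

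**Figure D4:**
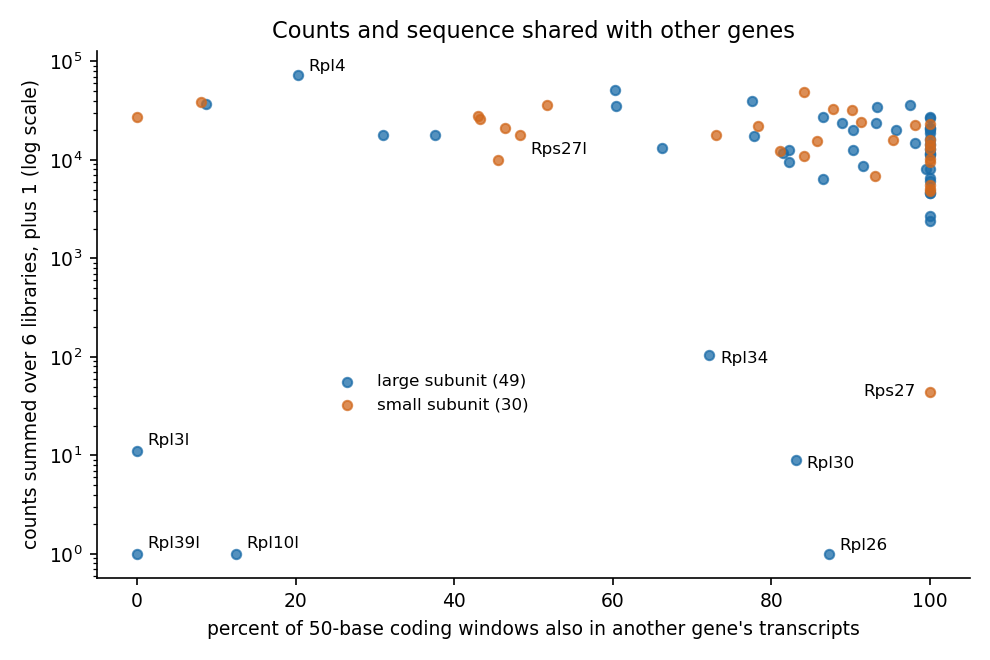
Counts summed over the 6 libraries plus 1 (vertical axis, log scale) against the percent of 50-base coding windows that also occur in another gene's transcripts (horizontal axis) for all 79 genes, coloured by subunit. Most genes lie above 2000 counts at any share, and Rpl34, Rps27, Rpl30, Rpl26, Rpl3l, Rpl10l and Rpl39l lie far below.

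Several proteins of the cytosolic ribosome have symbols that the naming rule leaves out. Rpsa, a small subunit protein also described as a laminin receptor, was at 354, 366 and 336 CPM with liraglutide and 244, 324 and 277 with PBS. Its groups were apart and its log2 fold change was 0.32 ± 0.12 (edgeR adjusted p = 0.138). Fau, which encodes a ribosomal protein fused to a ubiquitin-like protein, had a log2 fold change of 0.02 ± 0.12 with groups that overlapped. The paralogs Rpl22l1, Rpl7l1 and Rpl36al were at -0.11, 0.09 and 0.02, and none of these genes passed the test with edgeR, DESeq2 or limma-voom; Rpsa was the one at an unadjusted p below 0.05 (0.0273 by edgeR).

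The ribosomes of mitochondria are made of a separate set of proteins, encoded in the nucleus. Of 76 tested Mrpl and Mrps genes, 30 had a log2 fold change above 0, and the median was -0.03. Mrpl54 rose (0.56 ± 0.14, edgeR adjusted p = 0.0429), a gene named after its value was seen, and 0 fell. DESeq2 called Mrpl54 too, and limma-voom called 0. At an unadjusted p below 0.05 edgeR gave 2 higher and 7 lower members, where 12.5% of all tested genes were higher and 13.1% lower at that p.

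**Figure D5:**
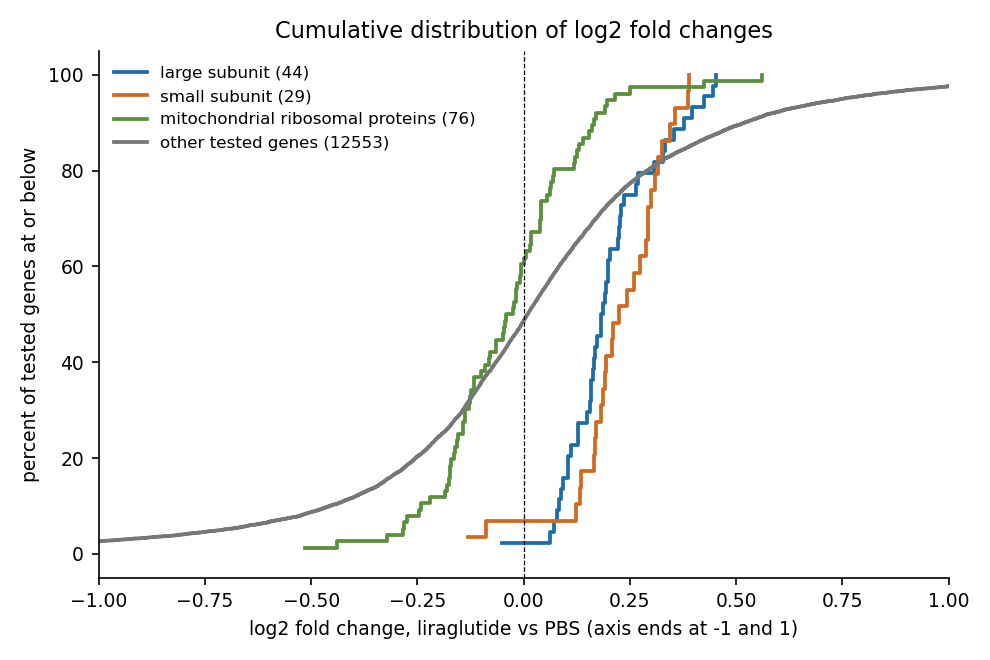
Percent of genes at or below each log2 fold change of liraglutide over PBS (axis from -1 to 1) for the large (44) and small (29) subunit, 76 mitochondrial ribosomal proteins and 12553 other tested genes. The curves of both cytosolic subunits rise within a narrow range right of 0, with medians of 0.19 and 0.23, while the mitochondrial set has its median at -0.03.

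Genes that act with ribosomal proteins were read from lists of translation factors, assembly factors, polymerases and regulators. Translation factors and other genes known for TOP motifs gave 0 of 31 past the threshold with edgeR (5 higher and 1 lower at an unadjusted p below 0.05), with 25 above 0 and a median of 0.13. Within that list Gnb2l1, which encodes the ribosome-bound scaffold Rack1, was at 281 ± 12.6 CPM against 226 ± 29.8 (0.32 ± 0.12, adjusted p = 0.129). Eif4a2 and Eif3k had the smallest p there, with log2 fold changes of -0.37 ± 0.10 and 0.50 ± 0.14 (adjusted p = 0.0543 and 0.0571). DESeq2 called both and limma-voom called Eif4a2 alone. Over all tested genes, 8.77% were past the threshold with edgeR and 51.6% lay above 0. At an unadjusted p below 0.05 the background was 12.5% higher and 13.1% lower.

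Assembly factors of the large subunit gave 2 higher and 0 lower of 65 tested with edgeR (10 higher and 0 lower at an unadjusted p below 0.05), with 54 above 0 and a median of 0.16. Over all tested genes 4.08% were called higher, 4.69% were called lower and 51.6% lay above 0, so the count of calls in this list was no higher than the background. At the unadjusted p the background was 12.5% higher and 13.1% lower. Eif6, which keeps new 60S subunits from joining 40S until they are mature, rose from 48.0 ± 1.97 to 71.4 ± 15.2 CPM (log2 fold change 0.57 ± 0.15, edgeR adjusted p = 0.0416). It was at 71.3, 86.7 and 56.3 CPM in Lira161, Lira162 and Lira164 and between 46.8 and 50.3 in the PBS libraries. Nop2, a methyltransferase of 28S ribosomal RNA, rose from 18.7 ± 1.50 to 26.3 ± 3.37 CPM (0.49 ± 0.12, adjusted p = 0.0368). Eif6 kept its call in 8 of 14 alternatives (adjusted p up to 0.137) and Nop2 in 9 (up to 0.163), and both lost it without Lira161, Lira162, PBS155, PBS157 or PBS158, Eif6 also with limma-voom.

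Among small subunit assembly factors, edgeR called 1 of 55 higher and 0 lower (7 higher and 1 lower at an unadjusted p below 0.05), with a median of 0.09. Limma-voom gave the same count, and DESeq2 called Rrp36, Tsr1 and, as lower, Utp14b. Rrp36, needed for early cleavage of the ribosomal RNA precursor, rose from 15.7 ± 0.653 to 24.8 ± 3.75 CPM (0.66 ± 0.13, edgeR adjusted p = 0.0161), and lost its call without Lira161, Lira162, PBS157 or PBS158 (adjusted p up to 0.0710). Of 40 tested subunits and factors of RNA polymerases I and III, 0 were called higher and 1 lower by edgeR and by limma-voom (4 higher and 3 lower at an unadjusted p below 0.05 in edgeR), with a median of 0.06, and DESeq2 called Polr3k as lower besides. Polr3g, a polymerase III subunit that is an alternative to Polr3gl, fell from 11.1 ± 2.18 to 5.82 ± 0.732 CPM (-0.92 ± 0.18, adjusted p = 0.0158), and lost its call without Lira161 or PBS158 (up to 0.0639). The background over all tested genes was 4.08% called higher and 4.69% called lower by edgeR. At an unadjusted p below 0.05 it was 12.5% higher and 13.1% lower.

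The 39 tested nucleolar and snoRNP genes gave 0 past the threshold with edgeR (1 higher and 1 lower at an unadjusted p below 0.05) and a median of 0.10. Exosc8 and Gar1 had the smallest p, with -0.60 ± 0.18 and 0.40 ± 0.16 (adjusted p = 0.0652 and 0.146), and Exosc8 was called by DESeq2 but not by limma-voom. The 11 tested host genes of snoRNAs gave 0 with edgeR, also at an unadjusted p below 0.05, and a median of -0.04, with Snhg3 at 0.95 ± 0.41 and Snhg11 at -0.60 ± 0.36. DESeq2 called Snhg3 and limma-voom called 0. Of 27 other initiation and elongation factors, Eif6, which stands in this list too, was the one past the threshold with edgeR, and the median was 0.04. DESeq2 called Eef2k and Eif2b4 besides, and limma-voom called 0.

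Regulators of growth and of ribosome quality control gave 1 lower member each with edgeR and with limma-voom. At an unadjusted p below 0.05 edgeR gave 3 higher and 4 lower growth regulators. It gave 3 higher and 2 lower quality control and p53 genes at that p. Over all tested genes 4.69% were called lower, and 12.5% were higher and 13.1% lower at that unadjusted p. DESeq2 called 2 growth regulators higher and 3 lower (Eef2k, Mycn, Pdcd4, Sesn2 and Ulk1). Pdcd4, an inhibitor of the helicase eIF4A that mTOR signalling marks for degradation, fell from 79.0 ± 2.59 to 52.7 ± 4.66 CPM (-0.58 ± 0.10, edgeR adjusted p = 0.0088). It was at 53.7, 47.6 and 56.8 CPM with liraglutide and 79.7, 76.1 and 81.2 with PBS, and it passed the threshold in all 14 alternatives. Mdm4, a partner of Mdm2 in restraining p53, fell from 32.9 ± 1.71 to 25.4 ± 1.61 CPM (-0.37 ± 0.10, adjusted p = 0.0430). It lost that call with upper quartile factors, library totals and without any one of the 6 libraries (adjusted p up to 0.143). The medians of the lists were 0.03 over 39 growth regulators and 0.06 over 26 quality control and p53 genes. Log2 fold changes ranged from -1.34 to 1.42 in the growth list and from -0.39 to 2.96 in the quality control and p53 list.

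Levels of cell type markers moved with the groups in part. Over all tested genes edgeR called 4.08% higher and 4.69% lower. At an unadjusted p below 0.05 it gave 12.5% higher and 13.1% lower. Hepatocyte markers summed to between 97000 and 115338 CPM with liraglutide and 107256 and 127534 with PBS, and 1 of 10 rose (Hnf4a) and 0 fell with edgeR and limma-voom, while DESeq2 also called Cps1 higher. Endothelial markers summed to 223.7 to 341 CPM against 137 to 246 (2 of 8 rose, Stab1 and Clec4g), and B cell markers to 46.1 to 65.7 against 19.2 to 36.4 (0 of 5 called by edgeR and limma-voom, 1 higher at an unadjusted p below 0.05, Cd74, which DESeq2 called). Kupffer cell markers reached 195 to 319 CPM against 86.5 to 351 and stellate markers 294 to 347 against 183 to 307 (0 of 8 and 0 of 7 called by edgeR, DESeq2 or limma-voom, and 0 at an unadjusted p below 0.05). Biliary markers were at 27.0 to 29.0 CPM against 42.3 to 51.3 (1 of 6 fell, Spp1) and erythroid markers at 17.8 to 40.0 against 77.5 to 91.1 (Alas2 fell; Hba-a1, Hba-a2, Hbb-b1 and Hbb-b2 were listed at 0). T and NK cell markers were at 2.67 to 3.28 against 3.30 to 3.55 CPM (of 3 tested, Cd4 fell, while Nkg7 and Klrb1c were higher at an unadjusted p below 0.05, with log2 fold changes of 1.27 and 1.59), neutrophil markers at no more than 1.11 CPM, and 8 proliferation genes at 31.7 to 34.2 against 31.5 to 34.9 (0 called by the 3 tools, 1 higher and 1 lower at an unadjusted p below 0.05). PBS155, the lowest library for ribosomal proteins, had the highest endothelial and Kupffer cell sums of the PBS libraries, 246 and 351 CPM. The part of these cells in the ribosomal protein levels was not tested.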

How the data were processed

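RNA was measured in 6 liver libraries. What the authors deposited is a single table of raw counts, whole numbers of reads for each gene symbol without normalization. STAR and mm10 are named, per the submitters' processing notes; no counting tool, annotation, strand setting or version was found in the labels. Columns were assigned to groups by the group name they carry. Library totals lay between 20888991 and 27007182 counts, which limits the precision of low genes, and the common biological coefficient of variation was 0.157. No pair of libraries within a group was alike within sampling noise (chi-square per degree of freedom 31.0 to 61.3). The table holds 0 mitochondrially encoded genes.

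In R 4.3.3, edgeR 4.0.16 was run with TMM scaling (filterByExpr on the groups, estimateDisp, robust glmQLFit, glmQLFTest) and a model of group alone. Two-sided p-values were adjusted by the Benjamini-Hochberg method over 12626 genes of 16949 with at least 1 count, at a threshold of 0.05. Standard errors were obtained as the log2 fold change over the root of F, and CPM include the TMM factors. The procedure was tested on simulated counts.

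Positions, transcript lengths, exon overlaps and 50-base windows came from GENCODE M21 (GRCm38, the assembly of mm10), and promoters from RefSeq tables on GRCm38.p6. Alternatives in the same fit were library totals, upper quartile factors, DESeq2 size factors and factors computed without ribosomal protein rows. Others were no low-count filter, a mean of at least 5 CPM, DESeq2 1.42.0, limma-voom from limma 3.58.1, and each library left out in turn. The members and the 20 lists (438 genes) were chosen with earlier results of these data known, so counts over them are descriptions.

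Named members were, for each subunit, the 6 with the highest mean CPM, the 5 highest and 5 lowest log2 fold changes, up to 8 past the threshold, paralogs ending in l with their parent genes, ribosomal rows outside the naming rule, and the members next to the 10-count limit. Of each other list, up to 4 members past the threshold were named, or else the 2 with the smallest p. Rpl11, Rps6, Rps27a, Rps26, Gnb2l1, Mrpl54, Nkg7, Klrb1c and the list members that DESeq2 alone called were added after their values were seen. A few items that this rule would name are left out of the text. Figures were drawn with matplotlib 3.10.9.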

Additional observations from a re-analysis of the deposited data

How the results depend on the processing

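In the large subunit, the count of members past the threshold was 0 as reported, 2 with library totals as the scaling (Rpl5 and Rplp2), and 1 (Rpl5) without the low-count filter, at a mean of at least 5 CPM and with DESeq2. It lay between 0 and 1 with single libraries left out. In the small subunit it was 0 in every alternative run. The count of large subunit members at an unadjusted p below 0.05 was 17 with library totals, against 10 as reported, and 2 to 14 with a library left out. The small subunit count of 12 became 18 with library totals and 0 to 18 with a library left out. The medians of log2 fold changes ranged from 0.07 to 0.27 (large) and 0.11 to 0.33 (small) with a library left out. Library totals moved the median of all tested genes by 0.05, and the other scalings moved it by less. The 6 genes of the ribosome-related lists past the threshold became 10 with library totals, 11 without the low-count filter, 18 with DESeq2 and 1 to 14 with a library left out. Over all tested genes the count was 1107 of 12626 as reported and 1065 with library totals. It was 1201 of 16949 without the filter, 1621 of 16949 with DESeq2 and 393 to 1496 with a library left out. Without the 10 most abundant other genes the shares of counts with liraglutide and PBS were 0.739% and 0.644% (large) and 0.512% and 0.445% (small). The cause of these shifts was not tested.

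Levels per kilobase of coding sequence, an alternative chosen after seeing the data, moved Rpl4 from 258 to 411, Rplp0 from 216 to 377, Rps2 from 189 to 393 and Rpl41 from 127 to 1977 CPM per kilobase. No paired analysis was possible because the numbers in the column names match no triplicate number of the labels. With 3 libraries a group, an exact permutation test of a single value cannot go below p = 0.1. Depth limits statements on Rpl34 and Rps27.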

Other observations

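Of Rps26, a small subunit protein beside the messenger RNA exit, the CPM were 153, 134 and 135 in Lira161, Lira162 and Lira164 and 96.6, 129 and 113 in PBS155, PBS157 and PBS158, with groups that did not overlap and a log2 fold change of 0.32 ± 0.12 (edgeR adjusted p = 0.140). The 6 rows whose names are those of ribosomal protein pseudogenes ending in ps and a number held 35 to 50 counts a library together, and adding them left the share of counts of the ribosomal proteins between 0.809% and 1.08%. Rps3a1 and Rps4y2, which the naming rule leaves out, had log2 fold changes of 0.16 ± 0.11 and 0.19 ± 0.27 with overlapping groups. The regulators Mtor, Larp1 and Trp53 had log2 fold changes of 0.16 ± 0.09, 0.03 ± 0.09 and 0.04 ± 0.10, and none passed the test. Among marker lists with no member past the threshold in edgeR's test, the smallest p belonged to Clec4f (0.63 ± 0.37) and Cd68 (0.52 ± 0.39) for Kupffer cells, Cd74 (0.86 ± 0.27) and Cd79b (0.49 ± 0.48) for B cells, Dcn (0.36 ± 0.16) and Des (0.35 ± 0.20) for stellate cells and Mcm2 (0.61 ± 0.26) and Birc5 (-0.97 ± 0.42) for proliferation.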
